A study of Mus musculus with 6 samples.

Results

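The genes of the AP-1 transcription factor and their immediate early companions were followed in macrophages cultured with cisplatin-treated tumour cells. The 10 genes were taken by symbol from a table of 54532 genes. They were the 4 FOS genes (Fos, Fosb, Fosl1 and Fosl2), the 3 JUN genes (Jun, Junb and Jund), Atf3, and the zinc finger genes Egr1 and Egr2. The libraries were made from cells that the labels call mouse bone marrow-derived macrophages (BMDMs) and the methods call monocytes, isolated from the marrow of young adult C57BL/6 mice. These cells had shared a culture with the mouse ovarian cancer line ID8. Before the co-culture, the ID8 cells had received 40 µM of the DNA-crosslinking drug cisplatin for 3 libraries and phosphate-buffered saline (PBS) for the other 3. The macrophages in both groups met tumour cells, so the comparison is between drugged and undrugged ID8 and not between the presence and absence of tumour cells. The length of the co-culture and the way BMDMs were parted from ID8 cells are not given in the sources used here. The methods speak of biological replicates and of experiments done in triplicate, without saying whether the libraries of a group came from separate cultures or mice, so the p-values measure the spread between these libraries, which may be technical.

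AP-1 is a dimer of leucine zipper proteins. A FOS protein must pair with a JUN protein to bind DNA, whereas JUN proteins can also pair with each other or with ATF proteins such as Atf3. Most of these genes are immediate early genes, which are transcribed within minutes of a growth factor, cytokine or stress signal from factors that are already present, through MAP kinases and serum response factor (SRF). Their mRNAs and proteins are short-lived. Egr1 and Egr2 are induced by the same route and bind GC-rich DNA. In macrophages, AP-1 acts beside the lineage factors at enhancers of inflammatory genes, and Egr1 and Egr2 are linked to monocyte differentiation.

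Some of the start regions carry short sequences by which such factors are known to act on each other's genes, and 4 are shown because they hold one. RefSeq windows of 300 bases (GRCm38.p6, 250 bases before the start site and 50 from it) were found for 8 of the 9 members looked up. Fosl1 had no entry and Egr1 was not looked up. In the lines that follow, capitals mark the matched motif and positions are counted back from the RefSeq start site, the last base before it being -1.
Jun, chr4:95052223-95052322, minus strand: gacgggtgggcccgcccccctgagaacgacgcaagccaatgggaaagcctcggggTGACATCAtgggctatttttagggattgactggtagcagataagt
Fosb, chr7:19310053-19310152, minus strand: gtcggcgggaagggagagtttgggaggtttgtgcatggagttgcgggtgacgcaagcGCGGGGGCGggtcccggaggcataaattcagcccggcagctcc
Fosl2, chr5:32136385-32136409, plus strand: ggctgcgcGCGGGGGCGgaagggcg
Egr2, chr10:67537787-67537816, plus strand: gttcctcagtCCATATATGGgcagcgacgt

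The Jun stretch covers the 100 bases before its start site and holds TGACATCA, a variant AP-1 site, from -45 to -38. The same letters occurred on either strand in 3.62% of 32817 RefSeq windows. The Fosb and Fosl2 stretches hold GCGGGGGCG, a site of the EGR type, from -50 to -42 and from -79 to -71, and 2.91% of all windows held it. Several of these RefSeq starts lie apart from the gene starts of the deposited table. That of Fosl2 lies 671 bases inside the gene, the Egr2 start used here 2394 bases inside, that of Atf3 34706 bases inside, and that of Jund upstream of it (at -1210), so these windows are not the start regions of the table. The Egr2 stretch holds a CArG box, the binding site of SRF, from -72 to -63 of the RefSeq start at base 67537869, and 1.63% of all windows held a CArG box. Egr2 had 5 RefSeq start sites, and a CArG box lay in the windows of 4 of them. Several of these windows overlap and hold the same box, so the 4 are not separate matches. The window whose start lies 24 bases inside the gene, the nearest to the gene start of the table, held none. The windows of Fos, Junb, Jund and Atf3 held none of the motifs searched, which also included the AP-1 site TGAGTCA (5.20% of all windows), the cAMP response element TGACGTCA (1.79%) and GCGTGGGCG (0.612%). Each motif was searched on both strands, and no 2 motifs overlapped in these windows. A match describes letters in a window and was not tested for binding.

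Levels were read as FPKM, a fragment count scaled by gene length and by library size, which allows genes of different length to be compared. Reads recovered from the FPKM values summed to between 15776238 and 17924686 per library, and Pearson's r across genes, on log2(FPKM + 1), was 0.984 to 0.989 within groups. Of the 10 members, 9 had at least 1 FPKM in at least 3 libraries and were tested with 13441 genes in all. Here "called" means a Benjamini-Hochberg adjusted p under 0.05 in limma together with a log2 fold change no smaller than 1 in size. Fold changes are cisplatin against PBS on the log2(FPKM + 1) scale, which understates changes of low genes.

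With cisplatin-pretreated ID8, Egr1, Jund and Fosl2 fell to 0.317, 0.422 and 0.420 of their mean PBS FPKM, and Junb and Jun fell by smaller amounts, to 0.635 and 0.833. Fos and Atf3 were both 1.19 times higher in the FPKM as deposited, a direction that turned under 1 scaling given further on. The 9 tested members gave 0 called higher and 3 called lower, where 4.67% of all tested genes were called higher and 11.3% lower. By the adjusted p alone, 2 members were higher and 5 lower, against 32.9% and 35.1% of all tested genes. Their median log2 fold change was -0.26, beside -0.0011 for all tested genes. The 2 groups did not overlap in 8 of the 9, and they did not overlap in 72.4% of all tested genes, so separation of the groups alone was common in this comparison.

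**Figure D1:**
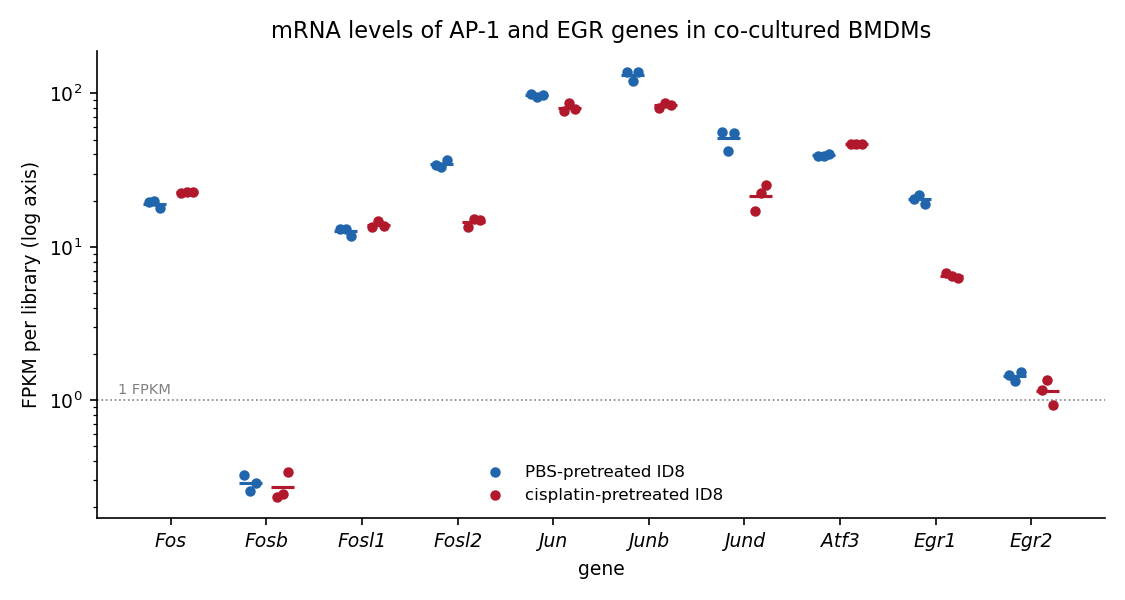
FPKM of each gene in the 6 libraries on a log axis, with blue points for PBS-pretreated and red for cisplatin-pretreated ID8; horizontal bars are group means (n = 3) and the dotted line marks 1 FPKM. Fosl2, Jund and Egr1 show the widest gaps between groups, whereas the groups of Fosb and Egr2 overlap.

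Among the JUN genes, Junb (ENSMUSG00000052837) was the most abundant member in both groups. JunB pairs with FOS proteins and often restrains c-Jun. It stood at 137.8, 120.1 and 137.0 FPKM in PBS replicates 1, 2 and 3 and at 79.95, 86.5 and 84.2 FPKM in the cisplatin libraries. The lowest PBS library lay above the highest cisplatin library, and the log2 fold change was -0.65 ± 0.062 (SE, adjusted p 9.05e-05 in limma), below the size needed for a call. Junb (chromosome 8, 84974484 to 84978718, minus strand, GRCm38) overlaps Prdx2 on the other strand, which reached 49.2 FPKM, and whether reads were counted by strand is not stated.

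Jun (ENSMUSG00000052684), which encodes c-Jun, the partner phosphorylated by the JNK kinases, was second. Its FPKM was 98.6, 94.9 and 97.6 in the PBS libraries and 77.0, 86.1 and 79.4 in the cisplatin libraries. The groups did not overlap, and the log2 fold change was small, -0.26 ± 0.047 (SE), at an adjusted p of 0.0023 in limma. Jun is a gene of 1 exon on chromosome 4 (95049034 to 95052222, minus strand), and the sequence shown above ends at its start.

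Jund (ENSMUSG00000071076), a JUN gene that is usually expressed steadily rather than induced, changed most of the 3. It was at 55.8, 42.0 and 55.2 FPKM in the PBS libraries and at 17.1, 22.5 and 25.1 FPKM in the cisplatin libraries. The cisplatin libraries were all lower, but the spread within groups was the widest among the called members, and the log2 fold change was -1.21 ± 0.16 (SE, 95% confidence interval -1.60 to -0.83, adjusted p 0.00049 in limma). The lower PBS value was replicate 2 and the lowest cisplatin value replicate 1, and leaving out any 1 library gave between -1.34 and -1.06. Jund also has 1 exon (chromosome 8, 70698949 to 70700616, plus strand), and it was covered by 484 to 1648 reads per library.

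The JUN genes together summed to 280 ± 19.7 FPKM with PBS (SD, n = 3) and 186 ± 10.8 FPKM with cisplatin. Within that sum the share of Jund was 18.2% ± 1.57 with PBS and 11.5% ± 1.75 with cisplatin, and Jun took 34.8% ± 1.85 and 43.5% ± 1.23. Junb took 47.1% ± 0.288 and 45.0% ± 0.858. For each of the 3 shares the groups did not overlap. These shares describe mRNA and not protein.

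Among the FOS genes, Fosl2 (ENSMUSG00000029135), which encodes Fra-2, a FOS protein without the strong activation domain of c-Fos, fell most. It was at 33.9, 32.9 and 36.8 FPKM in the PBS libraries and at 13.4, 15.2 and 14.9 FPKM in the cisplatin libraries. The lowest PBS value lay far above the highest cisplatin value, and the log2 fold change was -1.20 ± 0.064 (SE, 95% confidence interval -1.35 to -1.05, adjusted p 5.01e-06 in limma). Fosl2 (chromosome 5, 32135801 to 32157842, plus strand) was covered by 2207 to 5810 reads per library.

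Fos (ENSMUSG00000021250), the c-Fos gene and the classic immediate early gene, went the other way by a small amount. It was at 19.5, 19.9 and 17.8 FPKM in the PBS libraries and at 22.4, 22.7 and 22.8 FPKM in the cisplatin libraries. Every cisplatin library was above every PBS library, and the log2 fold change was 0.24 ± 0.048 (SE; adjusted p 0.0038 in limma), far below the size needed for a call, but the sign turned (-0.71) under a scaling by Y-linked genes described with the cell markers.

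Fosl1 (ENSMUSG00000024912), the gene of Fra-1, is itself a target of AP-1 in many cells. It was at 13.0, 13.1 and 11.7 FPKM in the PBS libraries and at 13.4, 14.6 and 13.7 FPKM in the cisplatin libraries. The groups did not overlap, but the log2 fold change of 0.14 ± 0.058 (SE, 95% confidence interval -0.0011 to 0.27) missed the threshold with an adjusted p of 0.0725 in limma.

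Fosb (ENSMUSG00000003545), whose short form FosB-delta is long-lived in neurons, was the lowest member. It was at 0.326, 0.257 and 0.289 FPKM in the PBS libraries and at 0.235, 0.244 and 0.339 FPKM in the cisplatin libraries, which is 25 to 36 reads per library. The groups overlapped and the gene did not pass the filter. With no filter its log2 fold change was -0.021 ± 0.066 (SE, adjusted p 0.838 in limma), so a difference was not detectable at this depth.

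The make-up of the FOS transcripts moved with these changes. Fosl2 supplied 52.0% ± 2.89 of the summed FOS FPKM with PBS (SD, n = 3) and 28.2% ± 1.01 with cisplatin. Fos supplied 28.7% ± 1.72 and 44.1% ± 1.15, so the leading FOS transcript was Fosl2 in each PBS library and Fos in each cisplatin library. Fosl1 supplied 18.9% ± 1.19 and 27.1% ± 0.636. The sum itself was 66.5 ± 0.360 FPKM with PBS and 51.3 ± 1.66 FPKM with cisplatin. A share within 1 library does not change with the scaling of that library. It can differ with the mix of ID8 and macrophage RNA, whose part in these shares was not tested.

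Over all 7 FOS and JUN genes the summed FPKM was 346 ± 20.1 with PBS and 237 ± 12.4 with cisplatin (SD, n = 3). JUN transcripts exceeded FOS transcripts in every library, by 3.89 to 4.38 times with PBS and by 3.51 to 3.70 times with cisplatin. The groups did not overlap in this ratio either. These sums and shares were taken as descriptions, with no test.

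**Figure D2:**
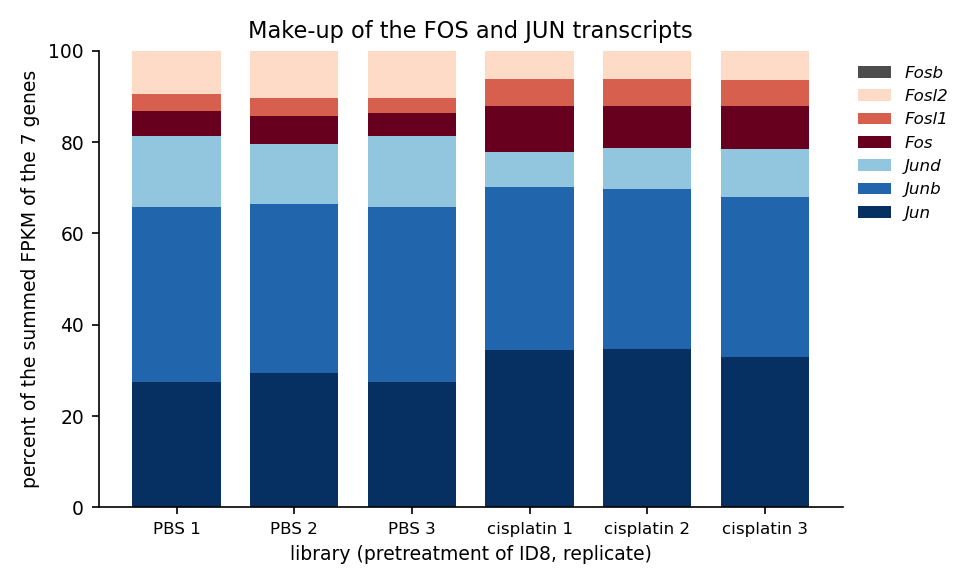
Each bar is 1 library and stacks the share of each FOS and JUN gene, in percent of the summed FPKM of the 7 genes, with JUN genes in blue and FOS genes in red; Fosb is too small to see. The bands of Jund and Fosl2 are narrower and those of Jun and Fos wider in the 3 cisplatin libraries.

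Atf3 (ENSMUSG00000026628) encodes a stress-induced ATF protein that pairs with JUN proteins and represses inflammatory genes in macrophages. It was at 39.1, 39.0 and 40.4 FPKM in the PBS libraries and at 47.1, 47.1 and 46.7 FPKM in the cisplatin libraries. The libraries of each group lay close together and the groups apart, so the small log2 fold change of 0.24 ± 0.032 (SE) had an adjusted p of 0.00045 in limma, while its sign also turned (-0.73) with scaling by Y-linked genes. By its values centred in the 6 libraries, Atf3 was among 7712 protein-coding genes close to Brd9 and Hbs1l, with root mean square distances of 0.010 and 0.016 on the log2 scale.

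Egr1 (ENSMUSG00000038418), a zinc finger factor induced within minutes through SRF, had the largest fall of the 9 tested members. It was at 20.5, 21.9 and 18.9 FPKM in the PBS libraries and at 6.71, 6.48 and 6.23 FPKM in the cisplatin libraries. The groups were far apart, and the log2 fold change was -1.52 ± 0.062 (SE, 95% confidence interval -1.66 to -1.37, adjusted p 1.42e-06 in limma). The size of this change exceeded that of 93.2% of the tested genes. By centred values Egr1 was most like Fam234a, Klf9 and Exoc6b, with root mean square distances of 0.043, 0.050 and 0.056 on the log2 scale over the 6 libraries. Klf9 is itself on the list of other immediate early genes described below.

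Egr2 (ENSMUSG00000037868), a relative of Egr1 linked to macrophage differentiation and alternative activation, was low throughout. It was at 1.46, 1.34 and 1.52 FPKM in the PBS libraries and at 1.16, 1.36 and 0.927 FPKM in the cisplatin libraries. The groups overlapped, and 52 to 88 reads per library stood behind these values. The log2 fold change of -0.19 ± 0.11 (SE) had a 95% confidence interval of -0.44 to 0.064 and an adjusted p of 0.155 in limma.

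**Figure D3:**
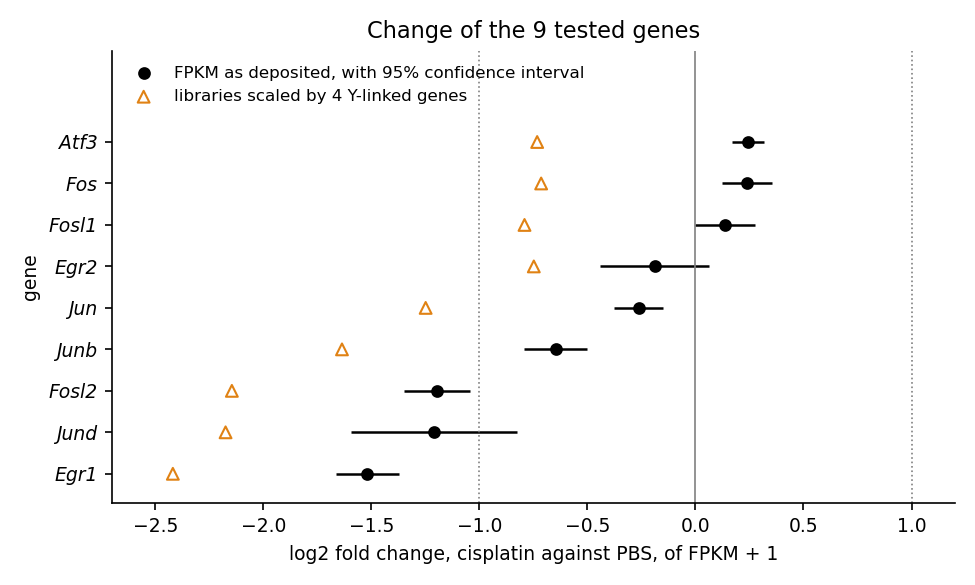
Log2 fold change of each tested member, cisplatin against PBS, with black points for the FPKM as deposited and lines for the 95% confidence interval; orange triangles show the same change after scaling libraries by 4 Y-linked genes, and dotted lines mark a change of 1. The order of the genes is similar under both scalings, and Atf3, Fos and Fosl1 lie above 0 only without the Y-linked scaling.

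The order of levels showed the same shift. With PBS the genes ran Junb, Jun, Jund, Atf3, Fosl2, Egr1, Fos, Fosl1, Egr2 and Fosb from high to low, and among neighbours only Egr1 and Fos overlapped between libraries. With cisplatin the order was Junb, Jun, Atf3, Fos, Jund, Fosl2, Fosl1, Egr1, Egr2 and Fosb. Here Junb with Jun, Fos with Jund, and Fosl2 with Fosl1 overlapped. Egr1 was above Fosl1 in every PBS library and below it in every cisplatin library.

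The cells behind these RNAs were checked with marker lists, because transcripts of ID8 cells could enter the libraries. The labelled cell type was present, since all 18 macrophage markers were detected, with 8 called higher. Most of these calls were lost with the scaling by Y-linked genes described below, where Lyz2 changed by 0.58. The summed FPKM of the 18 was 5421 to 5615 with cisplatin and 2446 to 2501 with PBS. Lyz2 alone was at 3459 ± 80.4 FPKM with cisplatin and 1161 ± 10.8 with PBS (SD, n = 3), so this gene made a large part of the sum. Adgre1, the F4/80 gene, was at 190 ± 3.53 FPKM with cisplatin and 103 ± 1.06 with PBS (SD, n = 3). Of 15 ID8 and mesothelial markers, 11 were tested and 9 were called lower, and their summed FPKM was 249 to 270 with cisplatin and 1346 to 1444 with PBS. By the adjusted p alone, 10 of the 11 were lower and 1 was higher. Krt19, a keratin gene, was at 51.1 ± 3.80 FPKM with cisplatin and 588 ± 28.8 with PBS. None of the 15 was at 0 in all libraries, and Epcam, Lrrn4, Krt7 and Igfbp5 had a mean under 1 FPKM. Neutrophil markers (8 of 11 called higher) and lymphocyte markers (4 of 7 tested called higher) moved with the macrophage markers, their summed FPKM being 9063 to 9323 with cisplatin against 4841 to 5000 with PBS and 443 to 454 against 197 to 204.

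The Y-linked genes, which a line of ovarian origin does not carry, were also higher with cisplatin in all 4 cases, and Ddx3y was at 19.2 ± 0.662 FPKM against 8.10 ± 0.520. Xist, the RNA of the inactive X chromosome, was at 7.79 ± 0.194 FPKM against 42.7 ± 5.35. Most tested markers of the tumour cells therefore moved with every fall reported for a member, and the part of tumour cell RNA in those falls was not tested. Fewer cells of a type and less RNA per cell cannot be told apart in these libraries. When the libraries were scaled so that the 4 Y-linked genes matched, the median of all tested genes was -0.83 and 5 members were called lower, with Jun at -1.25, Junb at -1.64, Fosl2 at -2.15, Jund at -2.17 and Egr1 at -2.42. Of all tested genes, 0.632% were called higher and 38.5% lower under this scaling. Relative to that median, Egr1, Jund, Fosl2, Junb and Jun still lay below it, and Fos, Atf3, Fosl1 and Egr2 above it.

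The neighbours of these genes in the pathway were described with 4 lists, whose counts, like those of the members, depended on the scaling. With scaling by Y-linked genes none of the 4 lists had a gene called higher, and the numbers called lower were 20 on the MAPK and SRF list, 39 among the other immediate early genes, 14 among the other leucine zipper factors and 19 among the AP-1 and EGR targets, of 48, 62, 35 and 34 tested and beside the 38.5% of all tested genes. Voom on recovered reads called 2 higher and 3 lower on the MAPK and SRF list, 5 and 13 among the other immediate early genes, 6 and 3 among the other leucine zipper factors and 7 and 10 among the targets, beside 9.13% higher and 13.8% lower over all tested genes. The counts and directions that follow are for the FPKM as deposited. The part of ID8 RNA in the falls on these lists was not tested either. Upstream, the list of MAPK pathway and SRF cofactor genes had 48 tested members, of which 0 were called higher and 2 lower, with a median log2 fold change of -0.050. By the adjusted p alone 17 were higher and 18 lower. The 2 called were Map2k1, which encodes the ERK kinase MEK1 (-1.11 ± 0.049, SE), and Nab2 (-1.03 ± 0.072, SE), a co-repressor of EGR proteins. Nab2 was at 15.0 ± 1.16 FPKM with PBS and 6.83 ± 0.462 with cisplatin (SD, n = 3), and it fell just short of a call without PBS replicate 1 (-0.98), without cisplatin replicate 1 (-0.99) or after quantile normalisation (-0.94). Its relative Nab1 changed by -0.26 ± 0.038 and Srf itself by 0.27 ± 0.048 (SE). Of the JNK genes, whose products phosphorylate c-Jun, Mapk9 changed by -0.85 ± 0.050, whereas Mapk8 changed by -0.13 ± 0.071 (SE) with an adjusted p of 0.155 in limma.

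The list of other immediate early genes had 62 tested members, 1 called higher and 13 lower, with a median of -0.32. A pseudocount of 0.1 or quantile normalisation called 2 higher, as did leaving out PBS replicate 1, PBS replicate 3, cisplatin replicate 2 or cisplatin replicate 3, and leaving out cisplatin replicate 1 called 0 higher. By the adjusted p alone, 18 of the 62 were higher and 34 lower, beside 32.9% and 35.1% of all tested genes. Among those with a mean of at least 5 FPKM in the higher group, the largest falls on the log2(FPKM + 1) scale were Ctgf, a matricellular gene (20.3 ± 1.28 FPKM with PBS, 0.469 ± 0.0413 with cisplatin), Cyr61, its relative (23.3 ± 1.36 and 4.27 ± 0.959), and Arl4d, a small GTPase gene (13.6 ± 0.285 and 2.16 ± 0.314). Klf6, a zinc finger factor gene, was called higher (1.03 ± 0.042, SE), but its change was 0.99 without cisplatin replicate 1 and 0.044 with scaling by Y-linked genes (adjusted p 0.537 in limma). Dusp1, the phosphatase that ends MAP kinase signals, was at 34.6 ± 2.60 FPKM with cisplatin and 18.3 ± 1.07 with PBS, a log2 fold change of 0.88 ± 0.067 (SE).

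The list of other leucine zipper factors, the potential partners and rivals of AP-1, had 2 of 35 called higher, 3 lower and a median of 0.060, its shares of 5.71% and 8.57% lying near the 4.67% and 11.3% of all tested genes. Among those with a mean of at least 5 FPKM in the higher group, Atf5, a factor of the amino acid stress response, was called higher (11.0 ± 0.0606 FPKM with PBS, 37.0 ± 0.282 with cisplatin), a call lost with scaling by Y-linked genes (0.71). Creb3l2, a membrane-bound factor of the secretory pathway (14.2 ± 1.46 and 4.43 ± 0.198), and Nfil3 (46.3 ± 1.06 and 20.5 ± 1.62) were called lower. Jdp2, which pairs with JUN proteins and represses AP-1, changed by 0.49 ± 0.057 (SE). Batf changed by 0.060 ± 0.11 (SE) with an adjusted p of 0.648 in limma. Batf3, a factor of dendritic cells, was called higher but low, at 1.83 ± 0.339 FPKM with cisplatin against 0.370 ± 0.292 with PBS, and lost the call without PBS replicate 2 (0.97), PBS replicate 3 (0.97) or cisplatin replicate 1 (0.96) and with scaling by Y-linked genes (0.62).

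The list of genes known as AP-1 or EGR targets in one cell or another had 34 tested members, 5 called higher and 8 lower, with a median of -0.15. These were 14.7% and 23.5% of the list, beside 4.67% and 11.3% of all tested genes. Among the called falls were those of Ndrg1 (a log2 fold change of -4.10 ± 0.036, SE), which also responds to low oxygen, and Vegfa (-2.65 ± 0.056), an angiogenic factor. Among those with a mean of at least 5 FPKM in the higher group, the largest rises on the log2(FPKM + 1) scale were those of Mmp14, a membrane-bound protease (11.8 ± 0.435 FPKM with PBS and 36.9 ± 0.260 with cisplatin, SD, n = 3), Plaur, the urokinase receptor (31.9 ± 3.67 and 73.3 ± 4.72), and Hmox1, which degrades heme (332 ± 7.81 and 725 ± 2.52). With scaling by Y-linked genes these rises were 0.62, 0.20 and 0.13 and none was called. By the adjusted p alone, 11 targets were higher and 18 lower, beside 32.9% and 35.1% of all tested genes. Of 15 tested p53 target genes, listed because cisplatin damages DNA, 2 were called higher (Mdm2 and Ccng1) and 0 lower, with a median of 0.25. The 2 higher were 13.3% of the list, where 4.67% of all tested genes were called higher and 11.3% lower. By the adjusted p alone 7 were higher and 1 lower, beside 32.9% and 35.1% of all tested genes. Without cisplatin replicate 1 the change of Ccng1 was 0.996, just under the size needed for a call, and with scaling by Y-linked genes Mdm2 changed by 0.23 and Ccng1 by 0.069, neither called.

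**Figure D4:**
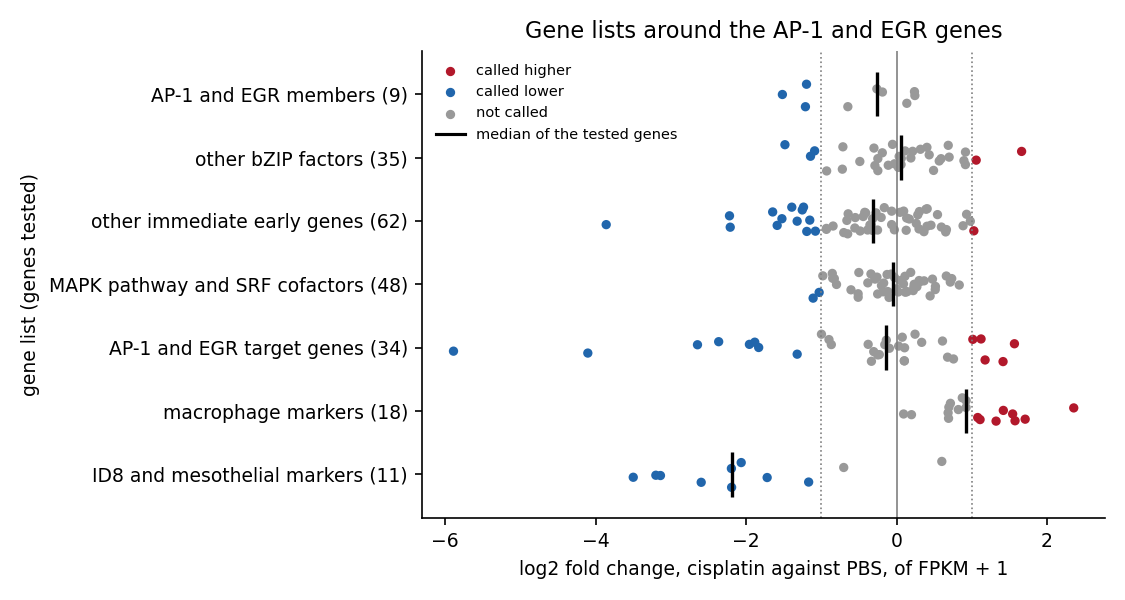
Log2 fold change of each tested gene, cisplatin against PBS, by gene list; red and blue points were called higher and lower, grey points were not called, black bars are medians and dotted lines mark a change of 1. The members and the other immediate early genes have medians of -0.26 and -0.32, the macrophage markers lie to the right of 0 and all but 1 of the ID8 and mesothelial markers to the left.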

How the data were processed

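RNA of 6 BMDM libraries was poly-T selected and sequenced, and groups and replicate numbers came from the sample labels. The authors deposited FPKM per gene, not counts. The submitters' processing notes name fastp, HISAT2 2.0.5, featureCounts 1.5.0-p3 and mm10, whereas the methods name LifeScope for alignment and counting. Which made the table was not resolved. Of the 54532 identifiers, 54409 were in GENCODE M21 (GRCm38), and coordinates are those of the table.

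Genes with at least 1 FPKM in at least 3 libraries were fitted as log2(FPKM + 1) in limma 3.58.1 (R 4.3.3, lmFit and eBayes with trend), group being the only term. The adjusted p threshold was 0.05. Of values worth under 200 reads, 100% were whole reads (tolerance 0.01), so limma voom on recovered reads served as an alternative. The library size used for FPKM came to 103.7% to 104.1% of those reads with cisplatin and 97.4% to 98.7% with PBS. It was therefore not the plain sum of the recovered reads, and its departure from that sum differed between the groups.

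Alternatives were other pseudocounts, filters, scalings and variance models, a replicate block, protein-coding genes only, the adjusted p alone, and each library left out. The procedure was tested on simulated data. The members and lists were chosen with earlier results of these data known. The text names all members, up to 3 called rises and 3 called falls per list with a mean of at least 5 FPKM in the higher group, fixed companion and marker genes whatever their values, and the 3 protein-coding genes nearest to Egr1 and to Atf3. Some single-gene results of this rule are not reported here. Mdm2, Ccng1, Epcam, Lrrn4, Krt7, Igfbp5 and Prdx2 were named after their values were seen.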

Additional observations from a re-analysis of the deposited data

How the results depend on the processing

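Jund, Egr1 and Fosl2 stayed called lower under every alternative run, and leaving out each library in turn gave 0 members called higher and 3 lower each time, with Egr1 between -1.57 and -1.47 and Fosl2 between -1.23 and -1.14. Scaling by Y-linked genes called 5 members lower and reversed Fos (-0.71), Fosl1 (-0.79) and Atf3 (-0.73). The cause was not tested. The adjusted p alone gave 2 members higher and 5 lower. Fosl1 passed the adjusted p after quantile normalisation (0.0156) and in voom (0.0268). A filter at 5 FPKM, which drops Egr2, moved the median of the tested members to -0.45.

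Over all genes, 628 were called higher and 1514 lower, against 1227 and 1861 in voom, 973 and 1981 with a pseudocount of 0.1, and 85 and 5181 with Y-linked scaling. The share of calls that were higher was 29.3%, and 39.3% after quantile normalisation and 39.7% in voom. After quantile normalisation the tested genes had a median of 0.10. Deviations of equally numbered libraries correlated at -0.104, -0.086 and -0.024, so the numbers gave no sign of pairing. A replicate block left 0 members called higher and 3 lower, and 625 genes higher and 1515 lower.

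Depth limits Fosb and Egr2, which had fewer than 100 reads in each library.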
